A study of Homo sapiens with 12 samples.

Results

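The mitochondrial outer membrane porins VDAC1, VDAC2 and VDAC3 and the import genes TOMM20, TOMM22, TOMM34, TOMM40, TOMM70 (older symbol TOMM70A) and SAMM50 were followed through the 4 groups of a microRNA experiment. They were chosen by name, and their probes were found through the transcript accession of each probe. The array held 101 probes for these 9 genes, of 233164 probes in all, and 98 of the 101 were kept. All 9 genes were among the 18253 genes that could be tested. The cells were MDA-MB-231, a triple-negative breast cancer line of long standing, and their RNA was read on 12 single-color exon arrays, of which the groups cntrl (control oligonucleotides), mimic145 (the miR-145-5p mimic), sirnaAGO2 (a Dicer-substrate siRNA against Ago2) and sirnaAGO2+mimic145 (siRNA and mimic together) had 3 each. The mimic was given at 5 nM and the siRNA at 500 pM for 72 h. Cells of every group had been through lipid transfection, and the siRNA lowered AGO2 without removing it. The labels do not say whether the replicates were separate cultures, so the p-values measure the spread between these arrays, which may be technical.

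VDACs are beta-barrel channels through which ATP, ADP, other metabolites and calcium cross the outer mitochondrial membrane. Nearly all mitochondrial proteins are made in the cytosol and enter through the TOM complex, in which TOMM20, TOMM22 and TOMM70 are receptors and TOMM40 is the pore. TOMM34 is a cytosolic co-chaperone that binds HSP70 and HSP90 together with preproteins. SAMM50 is the core of the SAM complex, which folds beta-barrel proteins, VDACs and TOMM40 among them, into the outer membrane. miR-145-5p is a microRNA known as a tumor suppressor, and Ago2 is a protein that carries microRNAs to their target mRNAs.

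The sequence of mature miR-145-5p is shown because every comparison with the mimic rests on it. It is the RefSeq sequence (GRCh38.p14, chr5:149430661-149430683, plus strand), with the seed, bases 2 to 8, in capitals. Target sites in the mRNAs of the 9 genes were not analysed here.

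hsa-miR-145-5p: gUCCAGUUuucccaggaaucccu

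Values are log2 of the quantile normalized signal, averaged over the kept probes of a gene. A kept probe is one that stood well above background throughout some group, on its 3 arrays. Levels of different genes cannot be compared, since each probe has its own brightness. Between 60.5% and 77.3% of the probes were well above background on an array. The 2 arrays of a slide always had the same replicate number, with the mimic array always at the second position, and on 5 of the 6 slides the mimic array had the lower share of probes above background. Slide position and mimic cannot be told apart. Arrays of cntrl and mimic145 shared slides, as did those of the silenced groups. The comparison of sirnaAGO2 with cntrl was thus always between slides, and the main fit had no term for the slide. AGO2 fell from 9.12 ± 0.10 in cntrl to 8.41 ± 0.05 in sirnaAGO2 (SD, n = 3 each), by 0.71 on the log2 scale (limma, adjusted p = 0.00493). In mimic145 versus cntrl AGO2 rose by 0.28 ± 0.08 (SE, limma, adjusted p = 0.0298), a call that passed under 13 of 26 alternatives. In sirnaAGO2+mimic145 versus sirnaAGO2 it changed by -0.06 ± 0.08 (SE, limma, adjusted p = 0.607). Of the markers of a mesenchymal line, VIM, CD44, CAV1, EGFR, MSN and AXL had kept probes. Of those usually low in this line PGR had no kept probe. Well above background on all arrays were 3 of 14 probes of ESR1, 4 of 16 of CDH1, 18 of 30 of ERBB2 and 6 of 6 of GATA3.

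The comparison of mimic145 with cntrl asked what the mimic changed in cells with Ago2 intact. VDAC1, VDAC3 and TOMM34 fell, TOMM22 rose, and the other 5 genes did not pass. The test was limma's, blocked by replicate number, with adjustment over all 18253 genes at a threshold of 0.05. It called 11.0% of all genes lower and 11.6% higher, against 3 and 1 of the 9. In the same 4 genes the arrays of the groups did not overlap, as was so, lower, for 13.5% and, higher, for 14.9% of all genes. The median change of the 9 genes was -0.01, beside 0.01 for all genes tested, so the group had no common direction.

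VDAC1, the most studied of the porins and a docking site for hexokinase, had a log2 signal of 11.20, 11.06 and 11.50 in cntrl and of 10.50, 10.46 and 10.65 in mimic145 (replicates 1, 2 and 3). Every mimic array was below every control array, and replicate 3 had the highest value in both groups. The change was -0.72 ± 0.10 (SE, adjusted p = 0.00146), which left 60.8% of the control signal. The mean over its 10 kept probes includes dim ones, well above background on only some arrays. With only the 8 probes above background on every array the fall was smaller, as given with the probes below. In RNA from whole cultures, fewer expressing cells and less RNA per cell cannot be told apart. VDAC3, the least conducting of the porins, read 9.73, 9.80 and 9.76 in cntrl and 9.37, 9.27 and 9.34 in mimic145. The groups did not overlap, and the arrays within each lay within 0.10 of one another. Its change was -0.43 ± 0.07 (SE, adjusted p = 0.00258), to 74.0% of control. The study singled VDAC3 out from these same arrays, so its fall on them is not independent evidence. The study also reports that RT-qPCR, a separate assay of RNA, bore out the modulation of VDAC3. That assay was not analysed here.

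VDAC2, the porin known to bind BAK, had values of 11.48, 11.44 and 11.53 in cntrl and of 11.52, 11.54 and 11.61 in mimic145. These ranges overlap, although each mimic array was above its own control. The change was 0.07 ± 0.06 (SE, adjusted p = 0.449). Within replicates, the change of VDAC1 lay below that of VDAC2 by 0.75, 0.70 and 0.93, a mean difference of -0.79 ± 0.12 (SD, n = 3). For VDAC3 against VDAC2 the mean difference was -0.51 ± 0.11, and for VDAC3 against VDAC1 it was 0.28 ± 0.19. The values of VDAC1 and VDAC3 used here include their dim probes. All 3 differences had 1 sign in the 3 replicate pairs, for which an exact two-sided sign-flip permutation test gives p = 0.25, the smallest that 3 pairs allow (adjusted p = 0.375 over 6 tests). The other 3 tests were in Ago2-silenced cells. There VDAC1 against VDAC2 gave -0.35 ± 0.31, with 1 sign in the 3 pairs (exact p = 0.25, adjusted p = 0.375), while VDAC3 against VDAC2 (-0.16 ± 0.23) and VDAC3 against VDAC1 (0.19 ± 0.21) had differences of both signs (SD, n = 3, exact permutation p = 0.50, adjusted p = 0.50 for each).

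**Figure D1:**
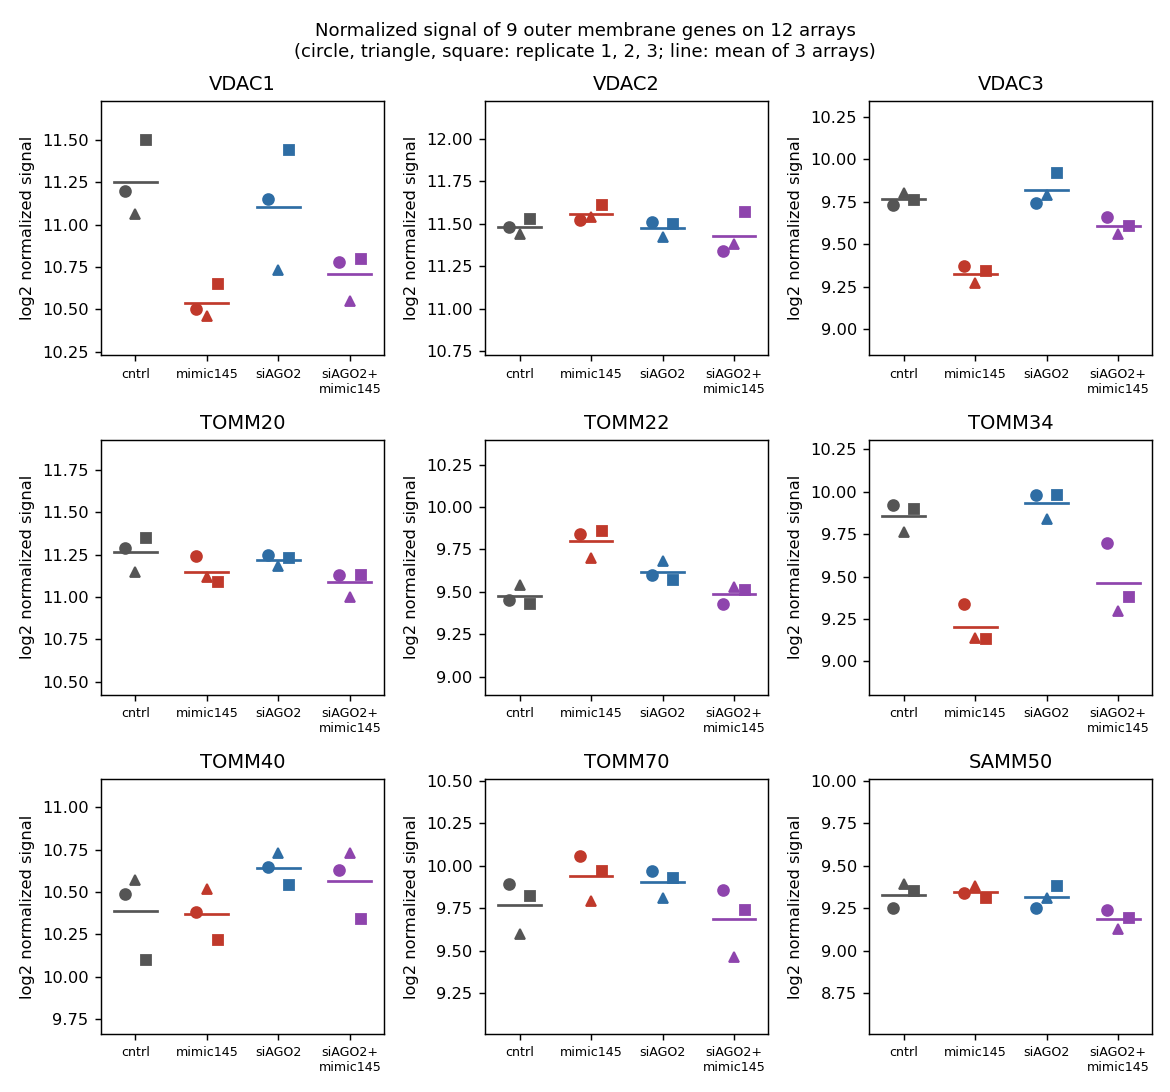
Log2 normalized signal (y axis, 1.5 log2 units in each panel) of the 9 genes on the 12 arrays by group (x axis, with siAGO2 for sirnaAGO2), with a symbol for each replicate and a line at the mean of 3 arrays. VDAC1, VDAC3 and TOMM34 lie lower on all mimic145 arrays than on all cntrl arrays, and TOMM22 lies higher.

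Among the import genes, TOMM34 changed most. Its log2 signal was 9.92, 9.76 and 9.90 in cntrl and 9.34, 9.14 and 9.13 in mimic145. All mimic arrays were lower than all control arrays, with a change of -0.66 ± 0.08 (SE, adjusted p = 7.3e-04), to 63.5% of control. TOMM22, the central receptor of the TOM complex, read 9.45, 9.54 and 9.43 in cntrl and 9.84, 9.70 and 9.86 in mimic145. It rose by 0.32 ± 0.07 (SE, adjusted p = 0.0127), and its smallest rise was in replicate 2. The call was lost when replicate 1 or replicate 3 was left out (adjusted p = 0.153 and 0.124), and also without the mimic145 array of either.

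TOMM70, the receptor for carrier precursors that arrive with chaperones, was at 9.89, 9.60 and 9.82 in cntrl and at 10.06, 9.79 and 9.97 in mimic145. The replicates differed more than the groups did, and within the pairs the difference was 0.17, 0.18 and 0.15. The test gave 0.17 ± 0.06 (SE, adjusted p = 0.0914). With the median over probes TOMM70 was higher by 0.37 and passed (adjusted p = 0.0216), and the methods' t-test at its own threshold, with no adjustment, also called it. TOMM20, the receptor for proteins with presequences, ranged from 11.15 to 11.35 in cntrl and from 11.09 to 11.24 in mimic145 (change -0.11 ± 0.07, SE, adjusted p = 0.262). TOMM40, the pore, ranged from 10.10 to 10.57 and from 10.22 to 10.52 (change -0.01 ± 0.07, SE, adjusted p = 0.930). SAMM50 ranged from 9.25 to 9.39 and from 9.31 to 9.38 (change 0.02 ± 0.07, SE, adjusted p = 0.888). With the mean over probes none of these 4 genes passed, and with standard errors near 0.07 smaller changes could not be seen.

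The exon array allowed each gene to be followed by several probes, which share its transcripts and are not replicates. Tested one by one over the 153960 kept probes with a value on every array, of which 6.75% were called lower and 7.44% higher, 20 of the 98 probes fell and 4 rose. All 10 probes of VDAC1 had a change below 0, from -2.05 to -0.27, and 7 were called. The extreme one was a dim probe, well above background on 7 of the 12 arrays, and with only the 8 VDAC1 probes above background on every array the change of the gene was -0.61 (adjusted p = 0.00202). All 11 probes of VDAC3 lay between -0.74 and -0.23, with 6 called, and all 7 of TOMM34 between -0.75 and -0.44, with 6 called. The 4 probes of TOMM22 lay between 0.25 and 0.39, and 2 of them were called. Thus in each gene that passed, every kept probe pointed the same way. The genes were called on the mean of these same probes, so the agreement is partly built in. A dim probe could be kept through the group where it was high, so its direction is not separate support. Such probes of VDAC1 (-0.27) and VDAC3 (-0.38) were well above background on 8 arrays each, of which 3 and 2 had the mimic. The agreement includes the 8 probes of VDAC1, 9 of VDAC3, 3 of TOMM22 and 7 of TOMM34 above background on every array.

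The genes that did not pass were mixed. For VDAC2, 12 of 15 probes were above 0, the largest by 0.23, and 0 were called. For TOMM70, 9 of 12 were above 0 and 2 were called higher, by 0.37 and 0.47. For TOMM20, 1 of 9 probes was called lower, by 0.51 on the log2 scale, while its median was -0.04. For TOMM40 the 14 probes ran from -0.20 to 0.37, and for SAMM50 the 16 ran from -0.87 to 0.31 with 11 above 0, none of them called. RefSeq lists 13 pseudogenes of VDAC1, 5 of VDAC2, 1 of VDAC3, 4 of TOMM20, 6 of TOMM22, 4 of TOMM40 and 1 of SAMM50. The files used here hold no probe sequences, so whether a probe also binds such a copy was not tested, and the values of these genes are uncertain to that extent. TOMM34 and TOMM70 have 0 in the list.

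**Figure D2:**
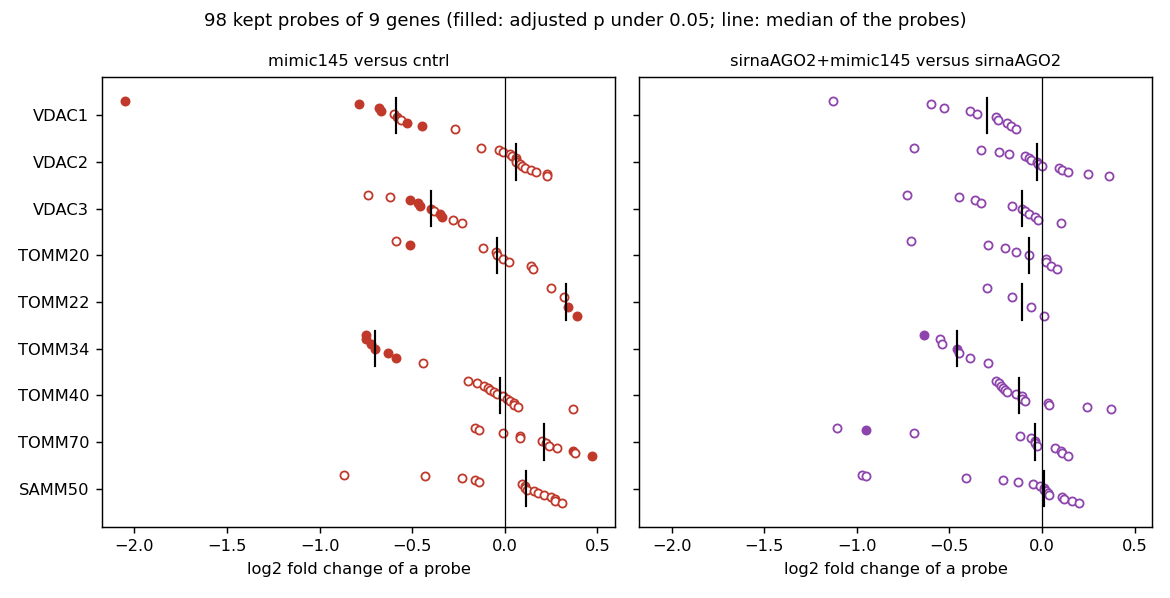
Log2 fold change (x axis) of each kept probe of the 9 genes (rows), with filled points for adjusted p under 0.05 and a line at the median of the probes. In mimic145 versus cntrl (left) all probes of VDAC1, VDAC3 and TOMM34 are below 0 and all of TOMM22 above 0, and in sirnaAGO2+mimic145 versus sirnaAGO2 (right) TOMM70 and SAMM50 have a few probes near -1 apart from the others.

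The comparison of sirnaAGO2+mimic145 with sirnaAGO2 asked what the mimic changed in Ago2-silenced cells. TOMM34 and VDAC1 fell and none of the 9 genes rose, with 3.03% of all genes called lower and 4.25% higher. The estimates of all 9 genes were below 0, with a median of -0.14 beside 0.02 for all genes, of which 45.9% were below 0. They stayed below 0 with the scaling by the 75th percentile, which moved the median of all genes to 0.11 and that of the 9 to -0.12. With the median over probes in place of the mean 7 of the 9 were below 0.

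TOMM34 had values of 9.98, 9.84 and 9.98 in sirnaAGO2 and of 9.70, 9.30 and 9.38 in sirnaAGO2+mimic145. The groups did not overlap, and replicate 1 moved least. The change was -0.47 ± 0.08 (SE, adjusted p = 0.0157), and 2 of its 7 probes were called, in a comparison in which 0.774% of all probes were called lower. It did not pass without replicate 2 or replicate 3 (adjusted p = 0.194 and 0.187), nor without any of the 4 arrays of those replicates in this comparison. VDAC1 read 11.15, 10.73 and 11.44 in sirnaAGO2 and 10.78, 10.55 and 10.80 in sirnaAGO2+mimic145. Here the groups overlapped, because the sirnaAGO2 array of replicate 2 was below 2 of the 3 mimic arrays. The change was -0.40 ± 0.10 (SE, adjusted p = 0.0478), and it passed under 3 of 26 alternatives, so the call lies at the edge of the threshold. All 10 of its probes were below 0 and 0 were called. The lowest, at -1.13, was a dim probe, well above background on 7 arrays, and the mean for the gene includes it. Another dim probe, well above background on 8 arrays, was at -0.14. As in control cells, the direction of dim probes is not separate support. The 8 VDAC1 probes above background on every array lay between -0.60 and -0.17.

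VDAC3 was at 9.74, 9.79 and 9.92 in sirnaAGO2 and at 9.66, 9.56 and 9.61 in sirnaAGO2+mimic145. The arrays did not overlap, yet the change of -0.21 ± 0.07 (SE) did not pass (adjusted p = 0.0943). The arrays of TOMM20, TOMM22, TOMM34 and SAMM50 did not overlap either, which makes 5 of 9 genes lower without overlap, beside 10.2% of all genes. For SAMM50 the gap was 0.01, from 9.24 to 9.25, and 9 of its 16 probes were above 0 (median 0.01). Its lowest probes, at -0.97 and -0.95, were well above background on 10 and 9 of the 12 arrays. For TOMM20, 4 of 9 probes were above 0 (median -0.07, lowest -0.71). VDAC2 changed by -0.05 ± 0.06 (SE, adjusted p = 0.638), TOMM20 by -0.14 ± 0.07 (SE, adjusted p = 0.206), TOMM40 by -0.08 ± 0.07 (SE, adjusted p = 0.517) and SAMM50 by -0.13 ± 0.07 (SE, adjusted p = 0.254).

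TOMM22 had values of 9.60, 9.68 and 9.57 in sirnaAGO2 and of 9.43, 9.53 and 9.51 in sirnaAGO2+mimic145, a change of -0.13 ± 0.07 (SE, adjusted p = 0.281). TOMM70 went from 9.97, 9.81 and 9.93 to 9.86, 9.46 and 9.74, a change of -0.22 ± 0.06 (SE, adjusted p = 0.0680). In both genes each mimic array was below the silenced array of its replicate, and above its own control in cells with Ago2 intact. The TOMM70 value rested on 3 of its 12 probes, which changed by -1.11, -0.95 and -0.69, while the other 9 lay between -0.12 and 0.14. With the median over probes it was 0.09 (adjusted p = 0.551).

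**Figure D3:**
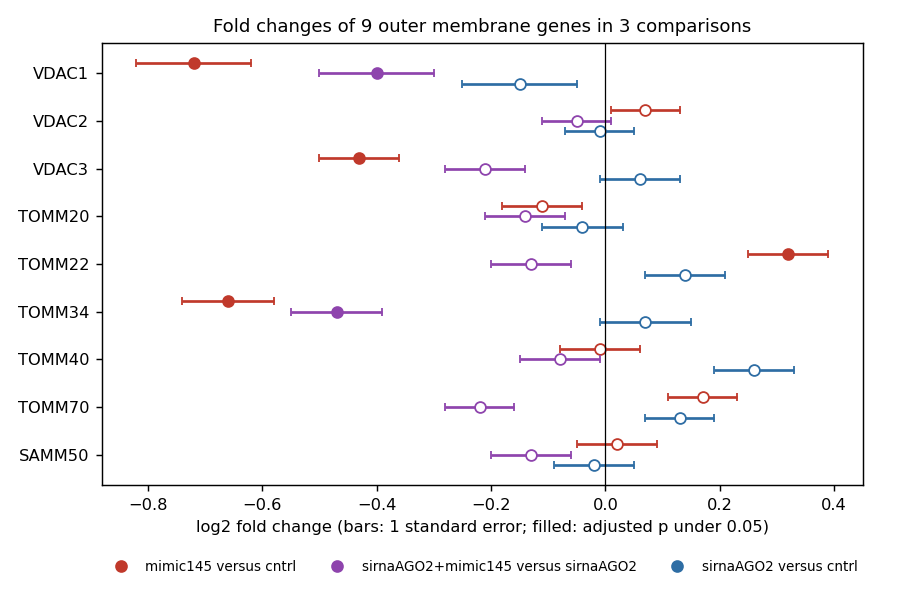
Log2 fold change (x axis) of the 9 genes (rows) in mimic145 versus cntrl, sirnaAGO2+mimic145 versus sirnaAGO2 and sirnaAGO2 versus cntrl, with bars of 1 standard error and filled points for adjusted p under 0.05. VDAC1 and TOMM34 are filled in both comparisons with the mimic, VDAC3 and TOMM22 in cells with Ago2 intact, and none of the 9 in sirnaAGO2 versus cntrl.

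The difference between the mimic effects in silenced and in control cells asked whether the response depended on Ago2. By limma 0 of the 9 genes passed, as did 0.0110% of all genes, and 3 of the 9 had an unadjusted p under 0.05, beside 16.8% of all genes. TOMM22 differed by -0.45 ± 0.10 (SE, adjusted p = 0.0980) and TOMM70 by -0.39 ± 0.09 (SE, adjusted p = 0.101). With only the 3 TOMM22 probes above background on every array, the difference of -0.46 passed (adjusted p = 0.0470). For the genes that fell in control cells the difference was positive, 0.32 ± 0.14 for VDAC1 (SE, adjusted p = 0.300), 0.23 ± 0.10 for VDAC3 (SE, adjusted p = 0.287) and 0.18 ± 0.11 for TOMM34 (SE, adjusted p = 0.431). It was so in all 3 replicates of each. A fall of VDAC3 that passed in control cells only is thus not shown to differ between the arms.

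Silencing alone, sirnaAGO2 against cntrl, was used as the background of the silenced arm. By limma 0 of the 9 genes passed, with 2.57% of all genes called. Of the 9, TOMM40 had the smallest unadjusted limma p (0.00699). It was at 10.49, 10.57 and 10.10 in cntrl and at 10.65, 10.73 and 10.54 in sirnaAGO2. The groups overlapped, since replicate 3 of sirnaAGO2 was below replicate 2 of cntrl, and the change was 0.26 ± 0.07 (SE, adjusted p = 0.107). VDAC1 changed by -0.15 ± 0.10, VDAC2 by -0.01 ± 0.06 and VDAC3 by 0.06 ± 0.07 (SE). This comparison shares its control arrays with the first and its silenced arrays with the second, so the 3 are not independent.

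By Pearson correlation over the 12 arrays, after the mean of each replicate number was subtracted, the genes most like VDAC1 among 13329 genes with at least 3 kept probes were PAFAH2 (r = 0.99), NDFIP2 (0.97) and CCDC25 (0.97). Those most like VDAC3 were CSF2, NT5C3A and DUT (0.97 each), and those most like VDAC2 were TIMM9, a small TIM chaperone (0.94), KATNIP (0.94) and RBM25 (0.93). These are descriptions, since the 12 arrays share 4 groups and the genes were the highest of many.

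The promoters of 8 of the 9 genes were in the RefSeq table used here, as windows from 250 bases before to 50 after a gene start, and VDAC3 was not. Of 5 motifs searched on both strands, the ETS motif CCGGAAG was found in 6 of the 8 genes (VDAC1, VDAC2, TOMM20, TOMM22, TOMM34 and TOMM70), beside 12.2% of 27305 genes. The NRF1 motif GCGCANGCGC was found in TOMM20, TOMM34 and TOMM40 (6.98% of all genes), the GC box GGGCGG in 6 of the 8 (48.3%), the reversed CCAAT box ATTGG in 3 (39.7%) and the TATA box TATAAA in 0 (14.0%). These motifs were picked after the sequences had been seen, none contains another, and a match is no evidence of binding. The 30-base windows around CCGGAAG, in capitals, are shown for VDAC1 and TOMM34, which fell, and for TOMM22, which rose. The motif was thus present in genes of either direction, and in VDAC2, which did not pass. The windows are at chr5:134004884-134004913, chr20:44960383-44960412 and chr22:38681946-38681975 of GRCh38.p14, each written from the minus strand, which is the strand of VDAC1 and TOMM34 and opposite to TOMM22.

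VDAC1: ggcagcggggcCCGGAAGggtaagaacgcg
TOMM34: ggcgcttgcgcCCGGAAGgtgtgccgcacc
TOMM22: tgtaggggacaCCGGAAGcggaaaggaggt

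Genes that work with the 9 were described from 8 lists of 85 genes, of which 83 were measured. In mimic145 versus cntrl 8 of the 83 fell and 25 rose, with a median of 0.11, beside 11.0% lower and 11.6% higher and a median of 0.01 over all genes. Of the 25 rises, 13 were in the lists of small TOM and SAM, TIM23 and TIM22 genes. Of 13 genes of the TIM23 channel and its motor 7 rose, 0 fell, and all 13 estimates were above 0 (median 0.26), although 1 was below 0 with the scaling by the 75th percentile or with normexp. PAM16, a motor subunit, rose by 0.60 ± 0.12 (SE, adjusted p = 0.00715) and GRPEL1, the nucleotide exchange factor of mitochondrial HSP70, by 0.49 ± 0.07 (SE, adjusted p = 0.00145). GRPEL1 also passed without any one replicate, and PAM16 did not pass without replicate 1 or 3. Of the 13 genes, 1 passed without replicate 1 and 2 passed without replicate 2 or 3. Of 9 genes of the TIM22 carrier pathway and the small TIM chaperones 3 rose, led by TIMM10 (0.47 ± 0.08, SE) and TIMM10B (0.41 ± 0.09, SE). Of 8 small TOM and SAM genes 3 rose, led by the SAM subunit MTX1 (0.49 ± 0.07, SE) and TOMM5 (0.37 ± 0.06, SE), which ranged from 0.23 to 0.73 over the alternatives. TOMM22 rose with these genes, while VDAC1, VDAC3 and TOMM34 fell.

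Lists further from import were mixed. Of 13 measured partners of VDAC 4 fell and 2 rose, the latter being the ADP/ATP carrier SLC25A4 (0.67 ± 0.08, SE) and PPIF, the cyclophilin of the permeability transition (0.55 ± 0.09, SE). Of 12 measured genes of the BCL2 family and mitophagy receptors 1 fell and 4 rose. The BH3-only gene PMAIP1 fell by 1.21 on the log2 scale (SE 0.14, adjusted p = 6.2e-04) and the survival gene BCL2 rose by 0.78 ± 0.16 (SE, adjusted p = 0.00821), on 2 kept probes each, and with no filter on dim probes the change of BCL2 was 0.17. Of 11 genes of fusion and fission MFN1, a mitofusin, fell by 0.79 (SE 0.14) and MIEF1, a receptor for the fission GTPase, rose by 0.56 (SE 0.07), with 1 lower and 2 higher in all. The relay and peptidase list had 1 of 8 lower, the peptidase subunit IMMP2L (-0.38 ± 0.06, SE), and 2 higher, led by the sulfhydryl oxidase GFER (0.44 ± 0.08, SE). The MICOS list had 1 of 9 lower and 2 higher, APOOL (0.31 ± 0.07, SE) and CHCHD6 (0.27 ± 0.07, SE).

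In silenced cells these rises were mostly not called. In sirnaAGO2+mimic145 versus sirnaAGO2, 3 of the 83 companion genes fell and 1 rose, with a median of -0.04, beside 3.03% lower, 4.25% higher and a median of 0.02 over all genes. The IP3 receptors ITPR2 (-0.41 ± 0.09, SE, adjusted p = 0.0329) and ITPR3 and the peptidase IMMP2L (-0.33 ± 0.06, SE, adjusted p = 0.0213) fell, and PPIF rose (0.36 ± 0.09, SE, adjusted p = 0.0423). ITPR2 passed under 11, IMMP2L under 13 and PPIF under 8 of 26 alternatives, and these 3 calls were lost when any one replicate was left out. With the median over probes IMMP2L changed by -0.05, and with only probes above background on all arrays ITPR2 changed by -0.17. All 13 TIM23 genes had a lower estimate in silenced than in control cells (median difference -0.18, beside 0.02 for all genes). So did 67 of the 83 companion genes (median -0.13), among them 8 of the 9 TIM22 and small TIM genes (median -0.19). In sirnaAGO2 versus cntrl, the baseline of that arm, 2 of the 13 TIM23 estimates were below 0 (median 0.09, beside -0.03 for all genes). By limma 0 of the 83 passed the test of the difference, with 22 at an unadjusted p under 0.05, beside 0.0110% and 16.8% of all genes. With silencing alone 1 of the 83 passed, beside 2.57% of all genes. This was PPIF, which rose by 0.62 ± 0.09 (SE, adjusted p = 0.0138).

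**Figure D4:**
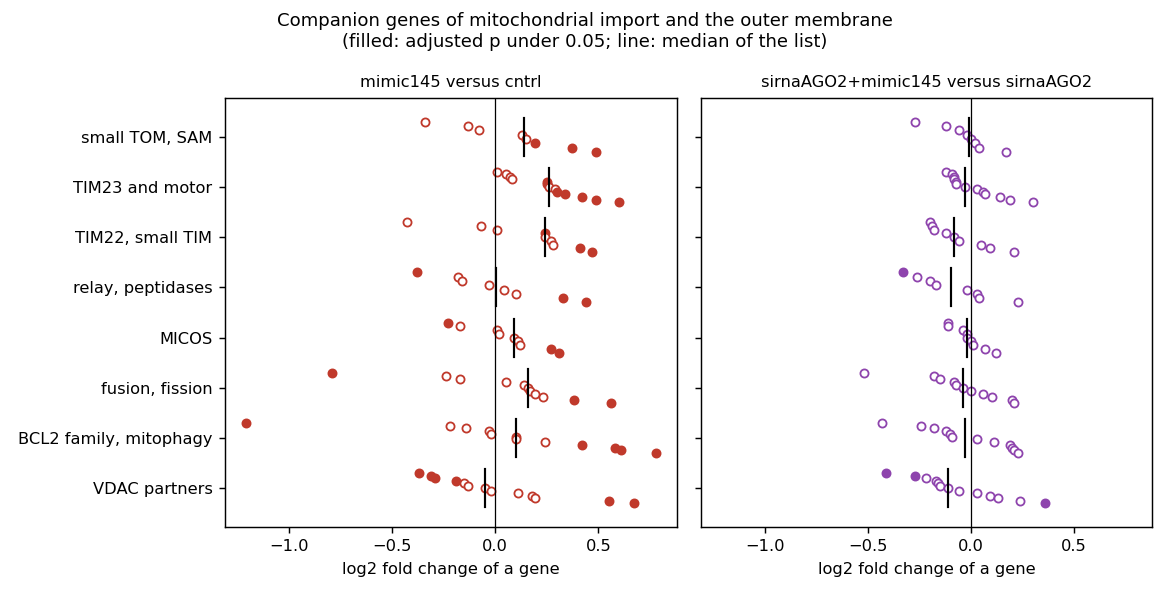
Log2 fold change (x axis) of the 83 companion genes by list (rows), with filled points for adjusted p under 0.05 and a line at the median of the list. In mimic145 versus cntrl (left) all 13 genes of TIM23 and its motor lie above 0, and in sirnaAGO2+mimic145 versus sirnaAGO2 (right) their median is -0.03 and none is filled.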

How the data were processed

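RNA of 12 MDA-MB-231 samples was labelled with 1 dye and hybridized to SurePrint G3 exon arrays by the authors, and read with Agilent Feature Extraction 10.7.3.1. The intensity of each spot that the authors deposited is background-subtracted within the array. The deposited log2 table of the authors was an alternative. No intensity lay under 1, the floor of the authors. Signals were quantile normalized and log2 transformed, as in the authors' methods. Control and outlier spots (304 to 462 per array) were left out and spots of a probe averaged. Of 233164 probes, 209671 (89.9%) had a gene through their transcript accession. The number of arrays limits the precision (median standard error 0.10).

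Groups and replicate numbers came from the labels, and doses from the methods. Limma 3.58.1 in R 4.3.3 (lmFit, eBayes, replicate number as a block, two-sided, Benjamini-Hochberg over all genes) was fitted to all 12 arrays and tested on simulated data. The block follows the paired test of the methods. Deviations of same-numbered arrays from their group means correlated at 0.139 to 0.577 over 18 pairs, and those of other arrays at -0.495 to 0.201. Named genes are the 9, AGO2, the 2 largest called changes of each companion list, and the 3 genes most like each VDAC. ITPR3 was named after its value was seen. Members and lists were chosen with earlier results of these data known. Plots used matplotlib 3.10.9. Other assays of the study were not analysed here.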

Additional observations from a re-analysis of the deposited data

Results flagged for a closer look

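The estimates of TOMM22 and TOMM70 had opposite signs in the 2 arms of the experiment, although of the 4 only that of TOMM22 in control cells passed. With the mimic, the signals of both were higher in all 3 pairs of control cells and lower in all 3 pairs of Ago2-silenced cells. Silencing alone, the baseline of the second arm, also had both higher than cntrl in all 3 pairs. The change was 0.14 ± 0.07 for TOMM22 (SE, limma, adjusted p = 0.328) and 0.13 ± 0.06 for TOMM70 (SE, limma, adjusted p = 0.298). The difference between the mimic effects was -0.45 for TOMM22 (limma, adjusted p = 0.0980) and -0.39 for TOMM70 (limma, adjusted p = 0.101). Neither passed after adjustment. This pattern of signs, in either order, was present in 576 of 18253 genes (3.16%). For TOMM70 the lower value in silenced cells was carried by 3 of its 12 probes, and with the median over probes it was 0.09, the same sign as in control cells.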

How the results depend on the processing

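Of the 927 recomputed changes of the 9 genes, 850 kept their direction and side of the threshold, 42 no longer passed, 12 newly passed and 23 changed sign. In mimic145 versus cntrl the count of 4 genes became 0 by the methods' t-test after Benjamini-Hochberg, which called 0 of all genes, and 3 to 4 without any one replicate or array. The called probes went from 24 to 10 with no replicate block. In sirnaAGO2+mimic145 versus sirnaAGO2 the count of 2 was 1 with the scaling by the 75th percentile, the authors' table, no filter, only probes above background on all arrays, the median over probes and the slide as a random block, 0 with no replicate block, with only the arrays compared and by the methods' t-test after adjustment, and 0 to 2 without any one replicate or array. It was 0 without replicate 2 or 3 and without any of the 4 arrays of these replicates in the groups compared. With no replicate block, VDAC1 (adjusted p = 0.296) and TOMM34 (adjusted p = 0.106) no longer passed there. The methods' t-test at its own threshold called 2 genes in sirnaAGO2 versus cntrl, TOMM22 and TOMM34, and 4 in the difference between the effects. That test has no adjustment, and the share of all genes it called is not given here, so these counts are no result about the 9. Only probes above background on all arrays gave 1 in the difference between the effects. The cause was not tested.

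All changes of sign were in values that did not pass. With the median over probes, mimic145 versus cntrl gave -0.01 for VDAC2 and 0.01 for TOMM20, the silenced arm 0.09 for TOMM70 and 0.02 for SAMM50, and silencing alone 0.03 for SAMM50. The authors' table gave 0.01 for TOMM40 in mimic145 versus cntrl. Without one replicate or array, TOMM40 ranged from -0.08 to 0.04 and SAMM50 from -0.02 to 0.05 in mimic145 versus cntrl, VDAC2 from -0.11 to 0.01 in the silenced arm, VDAC2 from -0.04 to 0.02 and SAMM50 from -0.06 to 0.01 with silencing alone, and TOMM20 from -0.11 to 0.04 and TOMM40 from -0.14 to 0.07 in the difference. The number of probes above background, not read depth, limits dim genes.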
